A study of Rattus norvegicus with 12 samples.

Results

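Cyp1a1 (ENSRNOG00000019500) and Cyp1b1 (ENSRNOG00000040287) encode cytochrome P450 enzymes and are textbook target genes of the aryl hydrocarbon receptor. They are 2 of the 32623 genes in the deposited count table, were taken from it by their Ensembl identifiers, and both were among the 14660 genes that passed the filter on low counts. Cyp1a1 was chosen by its counts, for its large rise on soft gel at passage 6, and Cyp1b1 is followed beside it. Values that rest on that choice are given without a test. These are the substrate difference of both genes at passage 6, its comparison with passage 3, and the passage differences of Cyp1a1, which use the same passage 6 libraries. The tests are those of both genes between substrates at passage 3 and of Cyp1b1 between passages.

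The cells were wild-type fibroblasts from the ventricles of adult rats, grown in DMEM/F-12 with 20% fetal bovine serum. Their substrate was tissue culture polystyrene, the rigid plastic of dishes, or, after transfer, a flat soft gel made of a synthetic polymer, poly(ethylene glycol) norbornene, with 48 h as the stated time. Polyadenylated RNA was sequenced in 12 libraries, 3 for each substrate at passage 3 and 3 for each at passage 6, a passage being a round of detaching and replating the cells. By its title, the series is about surface stiffness and the activation, senescence and inflammatory secretion of fibroblasts. The labels call the replicates biological without saying whether they were separate animals or cultures, so p-values reflect only how far these libraries spread, which may be technical. The rat strain and sex and the stiffness of the gel are not given in the labels. The substrates differ in material and in the transfer as well as in softness, and these cannot be told apart here.

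The libraries held 47834926 to 71464905 counts. Within a passage, plastic and soft gel libraries of the same number shared their deviations from the group means, and are called a pair here. Numbers did not pair the passages, and whatever else set the passage 3 cultures apart from the passage 6 cultures cannot be told apart from passaging. Pair 3 of passage 6 stood apart from the other libraries on the second principal component (27.2% of the variance). There its plastic library was at 50.4, its soft gel library at 45.8 and the other 10 between -28.6 and 6.02. On the first component (46.6%) its libraries were at -25.5 and -17.1, within the passage 3 range of -43.6 to 1.07. The other passage 6 libraries were at 16.3 to 64.6 on that component. CPM, the unit of all levels here, puts the counts of each library on a common total after TMM, a trimmed-mean correction for composition. In such bulk samples, fewer cells expressing a gene and less RNA per cell cannot be told apart.

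The aryl hydrocarbon receptor is a transcription factor that waits in the cytoplasm until it binds a ligand, such as a polycyclic aromatic hydrocarbon, a dioxin or a product of tryptophan. It then enters the nucleus, pairs with its partner Arnt and binds short DNA elements whose core reads GCGTG, and the P450 enzymes it raises oxidise many of its ligands and so clear them. Cyp1a1 is known for a very low resting level and a steep rise when the receptor is active. Cyp1b1 is known as the family member with a high resting level in fibroblasts and other mesenchymal cells, and its enzyme oxidises oestradiol, retinol and fatty acids as well as hydrocarbons.

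Of the 2 genes, RefSeq's promoter table held Cyp1b1, and the sequence is shown because it carries that core element close to a transcription start. The 250 bases before the start lie at chr6:21094315-21094564 on the plus strand of GRCr8, which is not the build of the counts, and inside the span that RefSeq gives the gene. The capitals mark GCGTG read on the plus strand and CACGC, which is GCGTG on the minus strand.
Cyp1b1: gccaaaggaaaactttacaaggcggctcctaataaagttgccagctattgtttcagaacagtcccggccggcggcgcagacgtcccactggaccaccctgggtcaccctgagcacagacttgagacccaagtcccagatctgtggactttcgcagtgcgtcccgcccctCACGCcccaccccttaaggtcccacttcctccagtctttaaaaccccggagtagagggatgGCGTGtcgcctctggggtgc
Counting back from the start, the plus-strand match began at base -20 and the minus-strand match at base -81. The longer form TNGCGTG, searched on both strands, matched once, from base -22, and includes the plus-strand GCGTG. Of 33469 rat promoter windows of 300 bases, 29.7% held GCGTG on either strand, 10.2% held it 2 or more times, and 4.89% held TNGCGTG. These matches describe the letters only, since binding was not measured.

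Cyp1a1 was low in 3 of the 4 groups, at 0 to 32 counts per library, and was higher in the fourth. On plastic at passage 3 the libraries held 28, 1 and 0 counts, or 0.486, 0.0153 and 0 CPM. On soft gel at passage 3 they held 32, 9 and 16 counts, or 0.530, 0.154 and 0.260 CPM. On plastic at passage 6 they held 8, 0 and 14 counts, or 0.127, 0 and 0.238 CPM. These 9 libraries overlapped across the groups. On soft gel at passage 6 they held 378, 184 and 630 counts, or 6.15, 3.09 and 7.94 CPM. The lowest of these was above all 9 others, in the libraries whose high values chose Cyp1a1. The share of all genes with such a separation was not counted. A count of 0 allows up to 3 counts, which is 0.0518 CPM in plastic library 3 of passage 3 and 0.0690 CPM in plastic library 2 of passage 6.

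Ordered by group mean, Cyp1a1 stood at 0.122 ± 0.119 CPM (SD, n = 3, as for the other groups) on plastic at passage 6, 0.167 ± 0.276 on plastic at passage 3, 0.314 ± 0.194 on soft gel at passage 3 and 5.73 ± 2.45 on soft gel at passage 6. The first 3 overlapped, and among them only plastic against soft gel at passage 3 was tested. Plastic library 1 held 28 of the 29 Cyp1a1 counts found on plastic at passage 3.

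**Figure D1:**
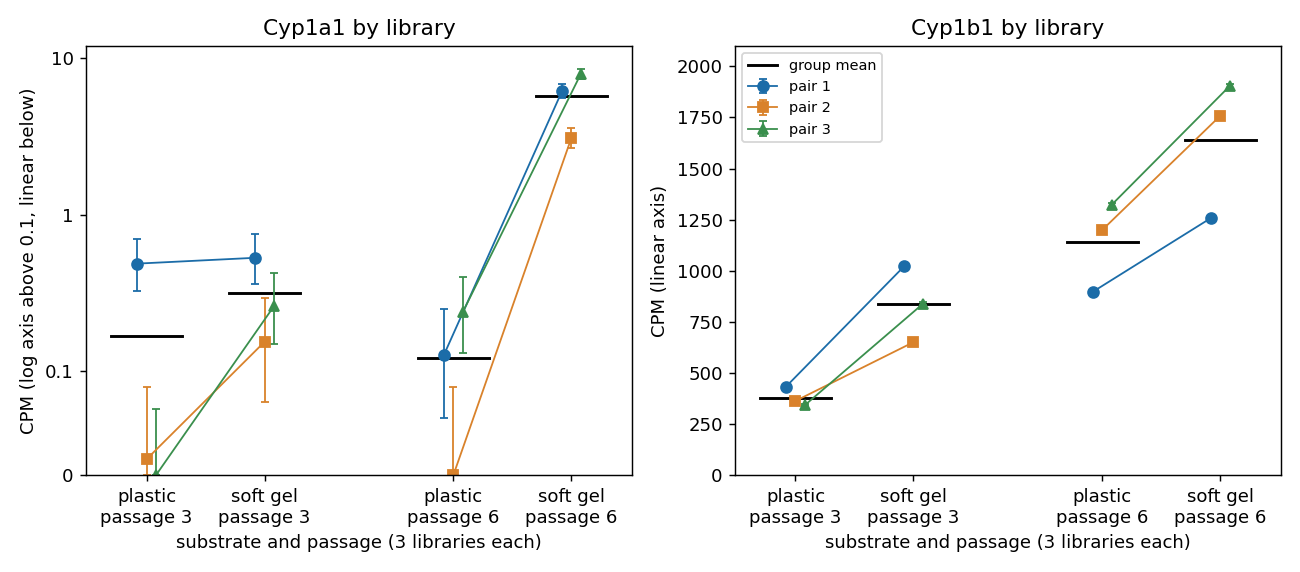
Level of Cyp1a1 (left, log axis above 0.1 CPM and linear below) and Cyp1b1 (right, linear axis) in each of the 12 libraries, with 95% Poisson counting intervals, lines joining the plastic and soft gel library of a pair within a passage, and black bars for the group means. Cyp1a1 exceeds 3 CPM only on soft gel at passage 6, while Cyp1b1 lies at 343 to 433 CPM on plastic at passage 3 and at 1258 to 1904 CPM on soft gel at passage 6; equal pair numbers at different passages do not mark related cultures.

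At passage 3, the comparison of the substrates asked whether these genes differed between soft gel and plastic in cells passaged few times. Cyp1b1 was higher on soft gel and Cyp1a1 did not pass the test. Cyp1b1 stood at 433, 363 and 343 CPM on plastic and at 1021, 651 and 838 CPM on soft gel. Every soft gel library was above every plastic library, which 15.7% of all genes tested also showed. The means were 380 ± 47.4 and 837 ± 185 CPM (SD, n = 3 each), a ratio of 2.2. The log2 fold change was 1.14 ± 0.21 (SE, edgeR quasi-likelihood test, Benjamini-Hochberg adjusted p = 0.0253), and 1.13% of the genes tested were called higher on soft gel by the same rule. With a term for each pair it was 1.12 ± 0.10 (edgeR adjusted p = 0.000169), where 8.85% of genes were called higher. An exact permutation test of the 3 libraries against 3 gave a two-sided p of 0.1, the smallest that 20 arrangements allow.

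The Cyp1b1 call at passage 3 was lost in the fit without pairs when plastic library 1, 2 or 3 of passage 3 was left out (edgeR adjusted p = 0.0750, 0.130 and 0.115), or soft gel library 1 or 3 of passage 3 (edgeR adjusted p = 0.119 and 0.0734). The fold change stayed between 0.97 and 1.32 on the log2 scale when single libraries were left out. The adjusted p lay between 5.79e-06 and 0.130 over the 26 alternatives, and in the fits with pairs that left out a whole pair it was 0.00396 at most.

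Cyp1a1 at passage 3 had a log2 fold change of 0.92 ± 1.19 on soft gel (SE, edgeR adjusted p = 0.727), with a 95% interval from -1.70 to 3.54. The interval spans lower as well as much higher levels on soft gel, so with 0 to 32 counts per library and this spread a difference was not detectable, which does not show that the levels were alike. Soft gel was above plastic in all 3 pairs, which held for 27% of all genes tested. With a term for each pair the log2 fold change was 1.44 ± 0.78 (edgeR adjusted p = 0.239), and the exact permutation test gave a two-sided p of 0.3, where 0.1 is the smallest possible. The value depended on plastic library 1. Without that library the log2 fold change was 4.97 (edgeR adjusted p = 0.139), and with pairs and without pair 1 it was 4.33 (edgeR adjusted p = 0.0543). The call was missed under all 26 alternatives, with adjusted p from 0.0543 to 0.947.

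Pair by pair at passage 3, the ratios were as follows, those of Cyp1a1 resting on few counts. In pair 1 Cyp1a1 was 1.09 times as high on soft gel as on plastic, with a 95% counting interval of 0.636 to 1.88, and Cyp1b1 was 2.36 times as high. In pair 2 the ratio was 10.1 for Cyp1a1, from 9 counts against 1, with a counting interval of 1.40 to 441, and 1.79 for Cyp1b1. In pair 3 the plastic library held 0 Cyp1a1 counts, and the ratio over a floor of 3 counts was 5.01. The 95% counting interval there began at 3.63, and Cyp1b1 was 2.45 times as high on soft gel. Counting error was small for Cyp1b1, of which each library held 19861 counts or more, with intervals of 2.32 to 2.39 in pair 1, 1.76 to 1.82 in pair 2 and 2.41 to 2.49 in pair 3.

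At passage 6, in cells passaged more often, the substrate values are a description, since this difference chose Cyp1a1. Cyp1a1 was higher on soft gel in each pair. It was 48.5 times as high on soft gel in pair 1, with a counting interval of 24.4 to 113. In pair 2, with 0 counts on plastic, the ratio over the floor of 3 counts was 44.8. The counting interval there began at 36.1. In pair 3 Cyp1a1 was 33.4 times as high, with an interval of 19.7 to 61.4. The ratio of the group means was 47.1. The fitted log2 fold change was 5.48 ± 1.32 (SE), and 13 of the 14660 genes had a larger one. In this comparison edgeR called 4.87% of genes higher, and 11.4% of genes had every soft gel library above every plastic library. It ran from 4.96 to 6.32 when single libraries were left out, plastic library 3 giving the highest value, and was 6.00 when pair 3 was left out whole.

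Cyp1b1 at passage 6 stood at 897, 1200 and 1323 CPM on plastic and at 1258, 1759 and 1904 CPM on soft gel. The groups overlapped, because soft gel library 1 was below plastic library 3, although soft gel was the higher library in each pair. The means were 1140 ± 219 and 1640 ± 339 CPM (SD, n = 3 each), a ratio of 1.44. The log2 fold change was 0.52 ± 0.21 (SE) without pairs and 0.52 ± 0.10 with them. The ratio was 1.40 in pair 1, 1.47 in pair 2 and 1.44 in pair 3, so the pairs varied by an SD of 0.03 on the log2 scale against 0.25 at passage 3. Without both libraries of pair 3 the log2 fold change was 0.53. Both genes were higher on soft gel in all 6 pairs of the 2 passages, as were 14.4% of all genes tested.

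**Figure D2:**
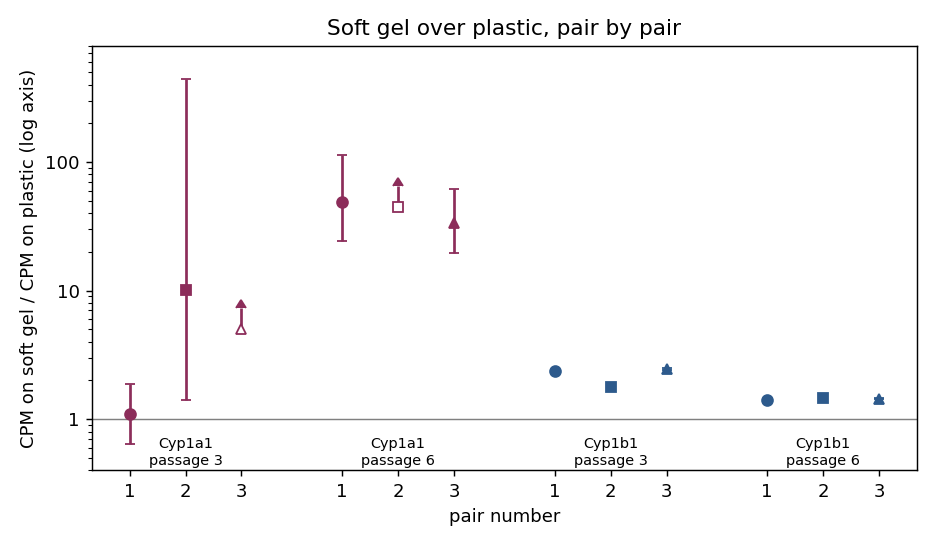
Ratio of CPM on soft gel to CPM on plastic in each of the 6 pairs (log axis), for Cyp1a1 (purple) and Cyp1b1 (blue). Bars are 95% counting intervals, and open symbols with arrows are ratios over a floor of 3 counts where the plastic library held 0 counts. The Cyp1a1 ratios are 33.4 or more at passage 6 and scatter from 1.09 upward at passage 3, while the Cyp1b1 ratios lie between 1.79 and 2.45 at passage 3 and between 1.40 and 1.47 at passage 6.

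Set side by side, the substrate differences of the 2 passages went in opposite order for the 2 genes. The Cyp1a1 ratios were larger at passage 6 in each pair than the ratios of 1.09 and 10.1 at passage 3. However, the counting interval of the latter reaches 441, and the ratio of 5.01 over the floor in pair 3 has no upper limit. The Cyp1b1 ratios were 1.79 to 2.45 at passage 3 and smaller at passage 6, at 1.40 to 1.47. The share of all genes whose pairs separate in this way was not counted. The difference of the log2 fold changes, passage 6 minus passage 3, was 4.56 ± 1.72 for Cyp1a1 and -0.62 ± 0.30 for Cyp1b1 (SE). With pairs these were 4.18 ± 1.14 and -0.60 ± 0.14. They include the difference that chose Cyp1a1 and were not tested. Without plastic library 1 of passage 3 the Cyp1a1 value was 0.51 ± 4.98, and with pairs and without pair 1 of passage 3 it was 1.30 ± 2.55.

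For Cyp1b1 the picture depended on the scale. In CPM rather than as a ratio, soft gel exceeded plastic by 588, 288 and 496 in the pairs of passage 3 and by 361, 559 and 581 in those of passage 6. The mean gains were 457 ± 154 and 500 ± 121 CPM (SD, n = 3 pairs each), and their ranges overlapped. The smaller ratio at passage 6 was thus measured over a higher level on plastic. The ratio of soft gel at passage 6 to plastic at passage 3 was 4.32 for Cyp1b1, where the product of its soft gel ratio at passage 3 and its passage ratio on plastic was 6.62.

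Between passages on plastic, the question was how the levels differed after more rounds of passaging. Cyp1b1 rose from 380 ± 47.4 CPM at passage 3 to 1140 ± 219 CPM at passage 6 (SD, n = 3 each), a ratio of 3.00. Every passage 6 library was above every passage 3 library, as for 18% of all genes tested. On the log2 scale the change was 1.59 ± 0.21 (SE, edgeR adjusted p = 0.00147), where 7.67% of genes were called higher. It passed under all 19 alternatives, with adjusted p from 5.53e-12 to 0.0117 and a log2 fold change between 1.46 and 1.73. The exact permutation test gave the smallest possible two-sided p of 0.1. The fit treats libraries of a pair as independent when it estimates the spread, so the p-values of the passage comparisons may be too small.

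On soft gel, the passage comparison asked how the passages differed in cells that had then been on the gel. Cyp1b1 rose from 837 ± 185 to 1640 ± 339 CPM (SD, n = 3 each), a ratio of 1.96. The passages did not overlap, as for 16.2% of all genes, since the highest passage 3 library was at 1021 CPM and the lowest passage 6 library at 1258 CPM. On the log2 scale the change was 0.97 ± 0.21 (SE, edgeR adjusted p = 0.0147), where 6.76% of genes were called higher. The call was lost without soft gel library 2 or 3 of passage 3 (edgeR adjusted p = 0.0564 and 0.0513) and when the fit held the 6 soft gel libraries alone (edgeR adjusted p = 0.0508), and over 19 alternatives the adjusted p ran from 0.000122 to 0.0564. Without both libraries of pair 3 of passage 6 the log2 fold change was 1.46 on plastic (edgeR adjusted p = 0.00395) and 0.85 on soft gel (edgeR adjusted p = 0.0310).

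On plastic, the mean of Cyp1a1 was 0.167 CPM at passage 3 and 0.122 CPM at passage 6, with overlapping libraries and a log2 fold change of -0.38 ± 1.26 (SE). The sign was not stable, being positive under 3 of 18 alternatives, at 3.67 without plastic library 1 of passage 3, 0.14 without plastic library 2 of passage 6 and 0.85 with limma-voom and pairs as a random effect. On soft gel its mean went from 0.314 to 5.73 CPM, a ratio of 18.2, and the fitted log2 fold change was 4.18 ± 1.22 (SE), between 3.83 and 4.78 over the 19 alternatives. Both passage differences of Cyp1a1 use the passage 6 libraries that chose it and are values without a test.

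The Cyp1b1 levels were thus ordered, from the lowest, as plastic then soft gel at passage 3 and plastic then soft gel at passage 6. Soft gel at passage 3, at 651 to 1021 CPM, overlapped with plastic at passage 6, at 897 to 1323 CPM. These neighbours were not tested against each other. The coefficient of variation within a group was 12.5% to 22.2% for Cyp1b1 and 42.8% to 165% for Cyp1a1, the lowest for Cyp1a1 being that on soft gel at passage 6.

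**Figure D3:**
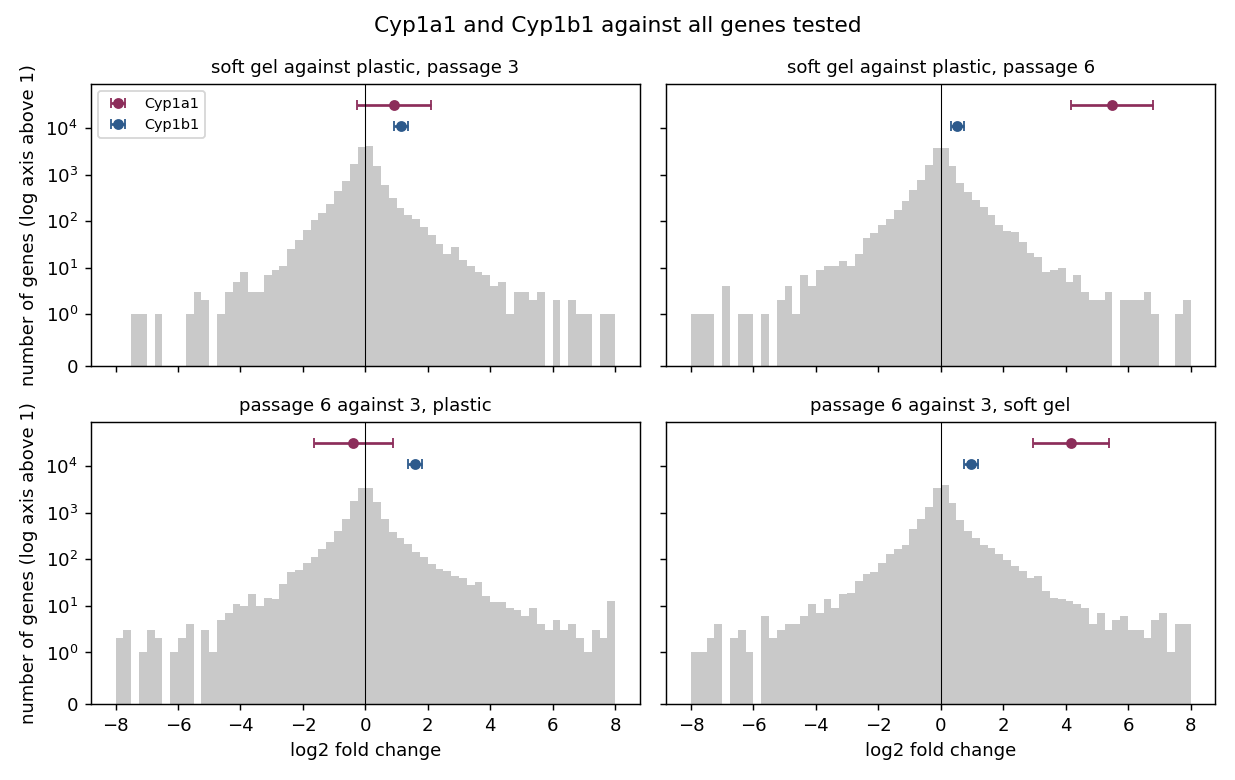
Number of genes (log axis above 1) in bins of the log2 fold change for the 4 comparisons over the 14660 genes tested, with values beyond 8 in either direction placed in the end bins, and the log2 fold changes of Cyp1a1 (purple) and Cyp1b1 (blue) with SE bars drawn above. Cyp1b1 lies to the right of 0 in all 4 panels, between 0.52 and 1.59, while Cyp1a1 lies at 5.48 and 4.18 in the panels on the right, and its SE bars in the panels on the left cross 0.

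Against all genes tested, whose median log2 fold change was -0.01 at passage 3, the Cyp1b1 value of 1.14 stood at the 95.9th percentile. For the passage comparisons the Cyp1b1 values of 1.59 on plastic and 0.97 on soft gel stood at the 95.5th and 91.3rd percentiles. Scaling by library totals instead of TMM moved the median of all genes between substrates to 0.12 at passage 3 and 0.17 at passage 6, and the Cyp1b1 value to 1.27 and 0.70. Cyp1b1 was higher on soft gel at both passages under each of the 3 scalings run.

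The gene whose pattern over the 12 libraries lay closest to each of the 2 was then sought, as the smallest root mean square difference of log2 CPM after each gene was centred on its own mean. For Cyp1b1 it was ENSRNOG00000004613, at 0.26 log2 units, where the median over all genes was 0.88. It stood at 29.6, 31.6 and 34.9 CPM on plastic and 57.6, 43.8 and 65.0 CPM on soft gel at passage 3. At passage 6 it stood at 62.8, 99.9 and 134 CPM on plastic and 130, 149 and 147 CPM on soft gel, ranges that overlapped. It was picked for its likeness to Cyp1b1 in these libraries, so sharing the order of the groups follows from that choice. For Cyp1a1 the closest was ENSRNOG00000002802, at 1.37 log2 units against a median of 2.64, a loose likeness. That gene stood at 0.198 to 2.43 CPM in the 6 libraries of passage 3, at 1.69, 2.12 and 6.14 CPM on plastic at passage 6, and at 30.8, 83.4 and 81.0 CPM on soft gel at passage 6. Cyp1b1 ranked 293rd of 14659 genes by likeness to Cyp1a1, and Cyp1a1 ranked 14426th by likeness to Cyp1b1. Both ranks rest on the same distance of 2.16 log2 units, which is not scaled for how much a gene varies. Cyp1a1 had a root mean square of 2.61 about its own mean, and Cyp1b1 had 0.81. These are descriptions of 12 libraries, in which genes share depth and culture.

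**Figure D4:**
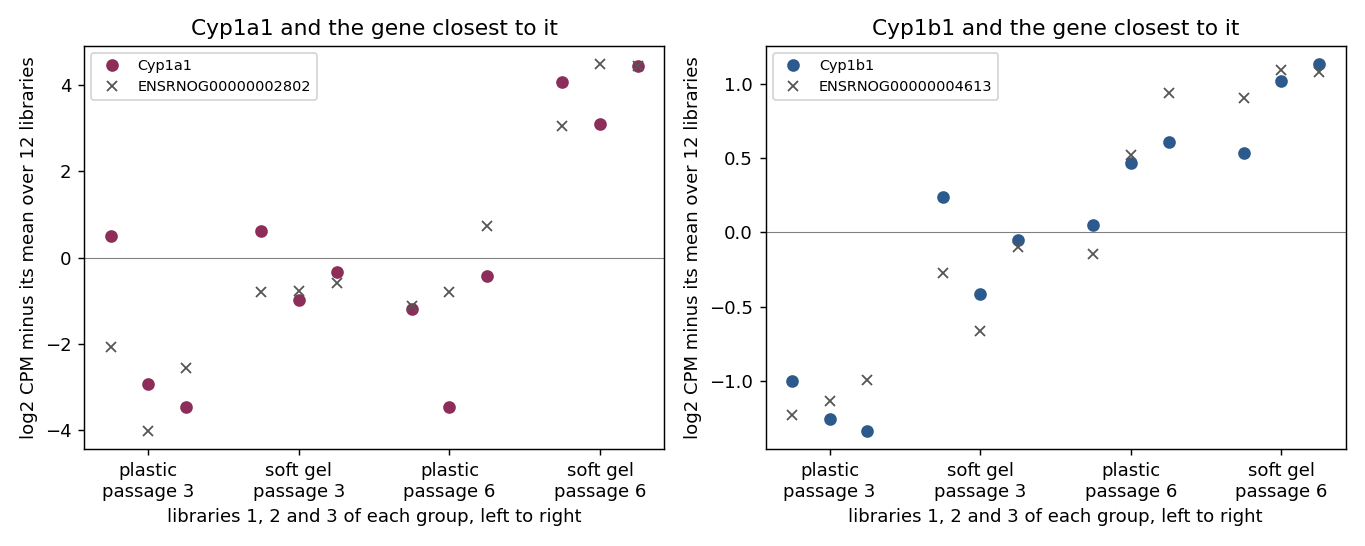
Log2 CPM in each of the 12 libraries after subtracting the gene's mean, for Cyp1a1 (left) and Cyp1b1 (right), with crosses for the gene closest to each. The crosses lie within 0.26 log2 units of Cyp1b1 by root mean square and within 1.37 of Cyp1a1, where the 2 largest gaps are in plastic libraries.

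The receptor gene Ahr, its partner Arnt, its repressor Ahrr, the other known targets Nqo1 and Tiparp and the markers of fibroblasts and other heart cells are not analysed here, because 0 of the 32623 identifiers could be matched to a symbol in the annotation table used. The labelled cell type and the activity of the receptor were therefore not checked against other genes. In that table Cyp1a2, a close relative of Cyp1a1, is the neighbouring gene of Cyp1a1 on chromosome 8, and Rmdn2 overlaps Cyp1b1 from the opposite strand on chromosome 6. How the counting divided reads between such genes, and whether it used strand, is not given in the sources used here, so reads in the Rmdn2 overlap cannot be told apart from those of Cyp1b1. Levels of Cyp1a1 and Cyp1b1 were not compared with each other, because no transcript lengths were used.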

How the data were processed

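The authors deposited unnormalized raw counts by Ensembl gene. HISAT2 2.1.0, the build Rnor_6.0, FastQC 0.11.5, Cuffnorm 2.2.1 and Cufflinks appear in the submitters' processing notes. Which tool counted, with which strand setting and annotation release, is not given in the sources used here. Every row carried an identifier.

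Groups came from the labels. Counts were analysed with edgeR 4.0.16, DESeq2 1.42.0 and limma 3.58.1 in R 4.3.3, and figures drawn in Python 3.11.15. Genes were filtered by filterByExpr (minimum count 10, minimum total 15) and TMM factors scaled the libraries. edgeR's quasi-likelihood F test was fitted over the 4 groups without pairs, with p-values adjusted over all genes tested and a threshold of 0.05. SEs are the fold change over the square root of its F statistic. The fits were tested on simulated data. The simulations covered only the edgeR fits and the substrate comparison at passage 3. The fit without pairs was simulated without pair effects.

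Same-numbered libraries were correlated across genes in their deviations from group means. Between substrates the correlations were 0.230 to 0.434 at passage 3 and 0.505 to 0.717 at passage 6. Every pair was over 0.1, so numbers pair the substrates, as a fact of the data and not of the labels. Between passages they ran from -0.291 to 0.0389.

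The genes, lists and tests were chosen with earlier results of these data known. Named genes were Cyp1a1, Cyp1b1, genes of fixed symbol lists, which could not be matched, and the genes of most similar pattern (prior count 2), of which the closest to each is printed. Replicates differed by far more than sampling noise (chi-square per degree of freedom 30.9 to 346). Counting intervals and floors cover counting error only, since PCR copies carried no molecular identifiers. The alternatives were other scalings, no filter, DESeq2, limma-voom, pairs, fewer groups and left-out libraries.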

Additional observations from a re-analysis of the deposited data

How the results depend on the processing

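Cyp1b1 kept its direction under every alternative run in all of its comparisons, and Cyp1a1 did between substrates and between passages on soft gel. Between passages on soft gel, Cyp1b1 passed under 16 of 19 alternatives; with the 6 soft gel libraries alone its log2 fold change was 0.95 and missed the threshold, and without single libraries it ran from 0.79 to 1.14. At passage 3 Cyp1b1 passed under 21 of 26, with values from 0.97 to 1.32 without single libraries. At passage 6 its substrate difference was 0.70 with library totals, an alternative added after the data were seen, and 0.38 to 0.68 without single libraries. Without single libraries the Cyp1a1 passage difference on plastic ran from -1.21 to 3.67 and its difference between the substrate effects from 0.51 to 5.39. A term for the replicate block gave 1.12 and 0.52 for Cyp1b1 and 1.44 and 5.62 for Cyp1a1 between substrates at passages 3 and 6, and changed neither tested call, those of both genes at passage 3; the passage 6 values have no test. It cannot be fitted to the passage comparisons, since pairs lie within passages. With a prior count of 0.5 the gene closest to Cyp1a1 came second.

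At passage 3 the 337 genes called without pairs became 2749 with the replicate block, 1256 with DESeq2, 2407 with limma-voom (pairs as a random effect), 2109 with the 6 libraries of passage 3 alone, 1036 without pair 3 of passage 6, and 520 with library totals, of which 405 were higher and 115 lower against 165 and 172. At passage 6 the 1460 became 3650 with the block, 2244 with DESeq2, 3434 with limma-voom and 189 with the passage 6 libraries alone, and with library totals 1617 were higher and 444 lower against 714 and 746. Between passages on soft gel the 1797 became 2720 with DESeq2 and 1045 with the soft gel libraries alone, and with library totals 1160 were higher and 614 lower against 991 and 806. For the comparison of the substrate effects edgeR without pairs called 0 genes, with 1044 at an unadjusted p under 0.05, against 314 with the block, 103 with DESeq2, 83 with limma-voom, 2 without pair 3 of passage 6, and 1 each with no filter and with library totals. Without pairs in the model, leaving out single libraries gave 34 to 538 genes at passage 3, 878 to 1448 at passage 6, 878 to 2127 between passages on plastic, 802 to 2013 on soft gel and 0 to 9 for the comparison of the effects. With the block, leaving out single pairs gave 1050 to 3218, 2575 to 3402 and 33 to 476 for the substrates at passages 3 and 6 and the comparison of the effects. Limits of depth bear on Cyp1a1 outside soft gel at passage 6, where a library held 0 to 32 counts. The cause of these movements was not tested.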
